A study of Mus musculus with 69 samples.

Results

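The MHC class II presentation genes are the 7 symbols H2-Aa, H2-Ab1, H2-Eb1, H2-DMa, H2-DMb1, Cd74 and Ciita, chosen by name. All 7 were found among the 24523 gene symbols kept from the count files. They were followed in whole kidneys of NZB/W F1 mice, a cross of NZB and NZW that develops lupus nephritis spontaneously with age, in 65 mice with 1 original library each. Young mice (n = 30) were 12 weeks old and received no therapy. Nephritic mice (n = 27) were 30 to 45 weeks old and were harvested 2 to 3 weeks after the onset of proteinuria. Remission mice (n = 8) were nephritic mice aged 36 to 50 weeks that received cyclophosphamide, CTLA4Ig and anti-CD40L together, stayed in remission of proteinuria and were harvested after 8 weeks. Kidneys were collected under a 12 h light and dark cycle at Zeitgeber times (ZT) 0, 4, 8, 12, 16 and 20 in young and nephritic mice, and at ZT0 and ZT12 in remission mice. Age differs with group, so age and nephritis cannot be told apart, and aged NZB/W mice without nephritis were not analysed here.

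MHC class II molecules display peptides from the endosome to CD4+ T cells. An alpha chain (H2-Aa) pairs with a beta chain (H2-Ab1) to form I-A, and H2-Eb1 is the beta chain of I-E. The invariant chain Cd74 escorts the new pair to the endosome, where H2-DMa and H2-DMb1, together the H2-M editor, exchange the remnant of the invariant chain for peptide. Ciita is the co-activator that switches these genes on. It does not bind DNA itself but docks on factors assembled on the X and Y boxes of class II promoters, and interferon gamma induces it in cells other than professional antigen-presenting cells. B cells, dendritic cells and macrophages carry most class II in a kidney, and injured tubule cells can acquire it.

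The genes of the H2 family sit together on mouse chromosome 17 (RefSeq annotation of GRCm38, the assembly called mm10 in the submitters' processing notes). H2-DMa lies at chr17:34119693-34139101, H2-DMb1 at chr17:34153191-34160229, H2-Ab1 at chr17:34263227-34269418, H2-Aa at chr17:34282744-34287823 on the minus strand and H2-Eb1 at chr17:34305867-34316674. Ciita lies apart, at chr16:10480014-10531064.

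The promoters are shown because the Ciita-dependent boxes are the sequence feature for which class II genes are known. RefSeq promoters were searched over the 250 bases before the start of transcription, on both strands, for AGCAAC (core of the X box) and ATTGG (core of the Y box). Each line gives the 120 bases from position -160 to -41 of the start, in the direction of transcription, with matches on that strand in capitals. H2-Aa is at chr17:34287864-34287983 (minus strand), H2-Eb1 at chr17:34305707-34305826, H2-DMb1 at chr17:34153031-34153150, and the related chains H2-Ob at chr17:34238745-34238864 and H2-Eb2 at chr17:34325515-34325634 (plus strand).
H2-Aa: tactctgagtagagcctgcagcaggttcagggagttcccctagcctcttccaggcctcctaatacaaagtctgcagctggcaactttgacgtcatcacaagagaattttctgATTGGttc
H2-Eb1: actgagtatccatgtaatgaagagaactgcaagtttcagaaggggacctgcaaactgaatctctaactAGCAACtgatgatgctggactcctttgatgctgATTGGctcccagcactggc
H2-DMb1: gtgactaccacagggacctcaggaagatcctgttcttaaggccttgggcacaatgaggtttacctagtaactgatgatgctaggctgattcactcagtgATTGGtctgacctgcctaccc
H2-Ob: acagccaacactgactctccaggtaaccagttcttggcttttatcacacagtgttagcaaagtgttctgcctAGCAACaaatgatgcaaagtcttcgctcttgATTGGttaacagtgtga
H2-Eb2: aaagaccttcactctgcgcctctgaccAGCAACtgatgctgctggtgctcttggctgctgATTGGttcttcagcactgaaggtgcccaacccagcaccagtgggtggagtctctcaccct

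In H2-Eb1 the AGCAAC core stood at positions -92 to -87 and ATTGG at -59 to -55 on the same strand. H2-Ob (-88 to -83 and -57 to -53), H2-Eb2 (-133 to -128 and -100 to -96) and H2-Oa (-77 to -72 and -43 to -39) had the same order. H2-DMb2 held ATTGG at -90 to -86 without AGCAAC. H2-Aa held ATTGG at -48 to -44 and H2-DMb1 at -61 to -57, without AGCAAC in the bases searched. Of 32851 promoters, 33.8% held ATTGG, 12.2% held AGCAAC, and 0.536% held AGCAAC followed by ATTGG within 40 bases. The interferon element GAAANNGAAA (2.98% of promoters) and the gamma-activated site TTCNNNGAA (7.02%) had no match in the promoters of H2-Aa, H2-Eb1, H2-DMa and H2-DMb1. The related H2-DMb2 held the gamma-activated site. H2-DMa has 2 promoters listed, 1 of which held ATTGG at -198 to -194. A match is only a run of letters, and its use in kidney was not measured. Only these exact letters were searched, so a box with other letters would be missed.

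The original libraries held 25257530 to 35744843 counts in young, 26596500 to 48075977 in nephritic and 13311278 to 21849912 in remission mice. Markers of proximal tubule cells, the main cells of the kidney cortex, summed to between 1213 and 12475 CPM (counts scaled to library size with TMM factors) in every original library. Sets were assigned here from the prefixes of the sample titles, not from a label of set or run. Titles with CR, CRS or HIL were taken as Set 1 (6 young and 5 nephritic mice, ZT0 and ZT12 only). Titles with the prefix ZT or RX were taken as Set 2, and the remission mice are here called the remission run. Each prefix occurs in 1 group only, so no title joins the young and nephritic mice of a set. In nephritic Set 1 mice CRS is all ZT0 and HIL all ZT12. Repeat libraries exist for 2 young and 2 nephritic mice. They were taken here to belong to the remission run, which the labels do not state. The young repeats held 29234354 and 44175692 counts and the nephritic repeats 14991137 and 15803112. Of these repeats, 1 (RX11RU) had its own original only 16th in likeness among all mice (r = 0.985), with RX11LU first (r = 0.996). Remission mouse s9, labelled ZT12, had 27.01 CPM of the clock gene Arntl, where the other ZT12 remission mice had 3.19 to 4.89 and the ZT0 mice 23.05 to 28.8. In 9 libraries, 8 young and 1 nephritic, adrenal markers summed to over 50 CPM. Reads were kept with few mismatches to a C57BL/6 reference, and how far NZB and NZW class II alleles lost reads was not measured.

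All 7 genes were higher in nephritic than in young mice, by 3.14 to 4.27 times, and Cd74 rose most. The chains of I-A and I-E, the invariant chain, both H2-M genes and the co-activator all passed. The test was edgeR's quasi-likelihood F test on the 57 young and nephritic libraries, with time point and set as covariates and Benjamini-Hochberg adjustment over 17521 genes. Of all genes tested, 28.1% were called higher at an adjusted p of at most 0.05 and the median log2 change was -0.03. In bulk tissue, more cells of a type and more RNA per cell cannot be told apart.

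Among the antigen-binding chains, H2-Aa lay between 26.5 and 45.04 CPM in young mice, with a median of 35.4. Nephritic mice had 50.1 to 425.7 CPM, with a median of 113.1. Its log2 change was 1.92 (SE 0.14, adjusted p = 4.44e-17). H2-Ab1 lay between 17.7 and 31.6 CPM (median 23.5) in young mice. Nephritic mice had 33.6 to 313.9 CPM (median 85.2), a log2 change of 2.01 (SE 0.15, adjusted p = 1.12e-16). In both genes the lowest nephritic mouse stood above the highest young mouse.

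H2-Eb1 ranged from 44.8 to 96.0 CPM (median 62.0) in young mice. Nephritic mice held 103.9 to 979.7 CPM (median 229.2), again without overlap, and the log2 change was 2.08 (SE 0.15, adjusted p = 1.78e-17). The invariant chain Cd74 was at 92.7 to 155.6 CPM (median 111.1) in young and at 181.9 to 1783 CPM (median 447.4) in nephritic mice. Its log2 change was 2.09 (SE 0.15, adjusted p = 5.77e-18), the largest of the 7.

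The H2-M genes were expressed at lower levels. H2-DMa lay between 6.16 and 10.3 CPM in young mice, with a median of 8.12. Nephritic mice had 11.5 to 73.7 CPM, with a median of 22.7. Its log2 change of 1.65 (SE 0.12, adjusted p = 2.72e-17) was the smallest of the 7. H2-DMb1 lay between 1.42 and 4.35 CPM (median 2.85) in young mice. Nephritic mice had 3.81 to 26.6 CPM (median 9.87), with a log2 change of 1.81 (SE 0.13, adjusted p = 4.84e-17). The ranges of H2-DMb1 overlapped, since nephritic mice RX11LL and RX90 did not exceed the highest young mouse. H2-DMb1 shared 22.7% of its 50-base stretches with H2-DMb2, so its reads could have been divided between both genes.

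The co-activator Ciita lay between 2.29 and 5.31 CPM in young mice, with a median of 2.97. Nephritic mice had 4.17 to 45.6 CPM, with a median of 12.9. The log2 change was 1.98 (SE 0.13, adjusted p = 8.96e-19). Nephritic mice RX7LU and RX100 did not exceed the highest young mouse. Every nephritic mouse stood above every young mouse for 5 of the 7 genes, all but H2-DMb1 and Ciita, against 0.885% of all genes tested.

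**Figure D1:**
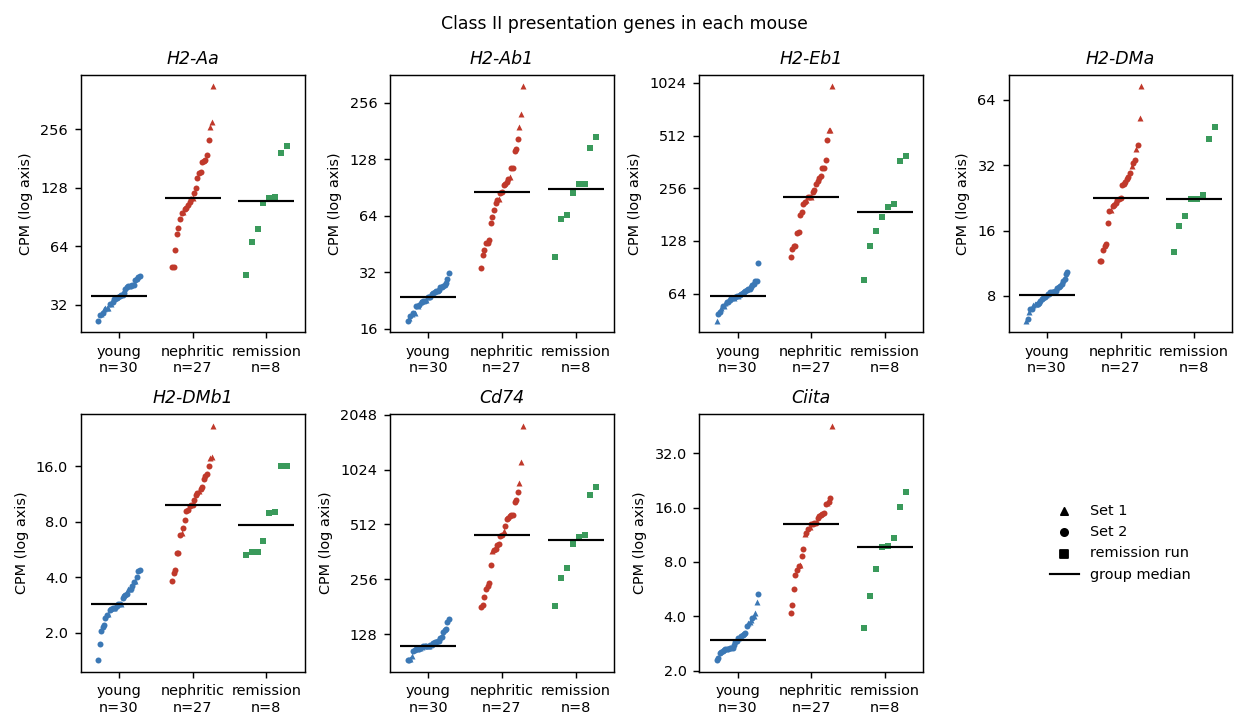
CPM (log axis) of each class II presentation gene in every mouse, by group, with triangles for Set 1, circles for Set 2, squares for the remission run and a bar at the group median. Nephritic and remission medians lie above the young median in all 7 panels, and nephritic mice spread more widely, for Cd74 from 181.9 to 1783 CPM.

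Per kilobase of exon, mean levels in young mice were highest for Cd74 at 68.3 CPM, then H2-Eb1 at 32.4, H2-Aa at 9.39, H2-Ab1 at 9.17, H2-DMa at 2.34, H2-DMb1 at 1.76 and Ciita at 0.332. On this scale the ranges of H2-Aa and H2-Ab1 overlapped in young mice, as did those of H2-DMa and H2-DMb1. In nephritic mice Cd74 stood at 310.8, H2-Eb1 at 146.3, H2-Ab1 at 39.6, H2-Aa at 37.4, H2-DMa at 7.70, H2-DMb1 at 6.39 and Ciita at 1.35 CPM per kilobase. The order differed in H2-Aa and H2-Ab1, and the ranges of all neighbours in the order overlapped in nephritic mice.

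The highest nephritic mouse held 6.39 to 10.9 times the level of the lowest, depending on the gene, against 1.68 to 3.06 times among young mice. Mouse HIL5RU (ZT12, Set 1) was highest among nephritic mice in all 7 genes. Summed over the 7 genes it held 3648 CPM, where the median nephritic mouse held 931.9. The lowest were RX11LL, last in 4 genes, and RX7LU, last in 3. HIL5RU was also first of 27 in summed B cell, T cell, dendritic cell and macrophage markers and last in proximal tubule markers. RX7LU was last of 27 in the 4 immune cell lists and 7th in proximal tubule markers. RX11LL, with the lowest sum over the 7 genes at 394.8 CPM, ranked 21 of 27 in B cell, 25 in T cell, 22 in dendritic cell and 24 in macrophage markers, and 2 in proximal tubule markers. The part of cell content in these levels was not tested.

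For 6 genes the difference in means was larger in Set 1 than in Set 2, which was not tested. At ZT0 and ZT12, mean log2 CPM of H2-Ab1 differed between nephritic and young mice by 2.98 in Set 1 (6 young, 5 nephritic mice) and by 1.52 in Set 2 (8 of each). For Cd74 the differences were 2.90 and 1.69, and for H2-DMb1 2.22 and 1.47. For Ciita they were 1.92 and 2.03. Young Set 1 mice had 3.65 to 4.80 CPM of Ciita, above the 2.29 to 3.53 CPM of young Set 2 mice at those times, whereas the other members were not higher in young Set 1 mice by their medians, apart from H2-DMb1 at 3.16 against 3.12 CPM. All 7 genes were called in Set 2 alone.

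The remaining genes of the pathway were grouped in lists by role. Of the other class II chains and editors, 5 of 5 measured genes rose. The pseudogene entry H2-Ea-ps, which stands for the alpha chain of I-E in the C57BL/6 reference, rose by a log2 change of 1.94 (SE 0.12). H2-Ob, a chain of the H2-O inhibitor of H2-M, rose by 2.49 (SE 0.20). H2-DMb2, the second H2-M beta gene, rose by 3.36 (SE 0.21) from a median of 0.866 CPM to 8.46. H2-Eb2 rose by 3.98 (SE 0.35). It had no count in 10 of 30 young mice, where 3 counts would be 0.0839 to 0.119 CPM, and at most 6 counts in the rest. The list median was 2.49, and the H2-DMb2 value carries the same uncertainty of shared reads as H2-DMb1.

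The factors that bind the X and Y boxes differed by at most 0.27 on the log2 scale. Of 7 genes, Rfx5 and Nfya were called higher, by log2 changes of 0.27 (SE 0.05) and 0.21 (SE 0.05). Nfyc and Rfxank were called lower, by -0.19 (SE 0.04) and -0.15 (SE 0.05). The list median was 0.00.

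Among 8 endosomal proteases and processing enzymes, 6 rose and 1 fell. Cathepsin S (Ctss), which trims the invariant chain, rose most, with a log2 change of 3.03 (SE 0.15, adjusted p = 5.74e-23) from a median of 11.9 CPM in young to 93.3 CPM in nephritic mice. Cathepsin C (Ctsc) rose by 1.33 (SE 0.10), Ctsd by 0.68 (SE 0.13) and cathepsin L (Ctsl) by 0.32 (SE 0.08). Ctsh fell by 0.29 on the log2 scale.

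Of 8 genes of the interferon gamma axis, 6 rose and 1 fell. Ifng itself rose by 2.09 (SE 0.32, adjusted p = 1.98e-07) at very low counts, with no count in 10 of 30 young mice and at most 36 in a nephritic mouse. Its target Irf1 rose by 1.26 (SE 0.12) and the feedback inhibitor Socs1 by 1.54 (SE 0.17). Jak1 fell by 0.11.

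Among 6 genes of costimulation and class II turnover, 4 rose. Cd80 rose by 2.32 (SE 0.24), Cd83, which slows the removal of class II from the surface, by 2.04 (SE 0.15), Cd86 by 1.82 (SE 0.12) and Cd40 by 1.29 (SE 0.12). The ubiquitin ligase March8 fell by 0.33, and March1, which removes class II from the surface of dendritic and B cells, was at -0.01 (SE 0.06, adjusted p = 0.907).

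**Figure D2:**
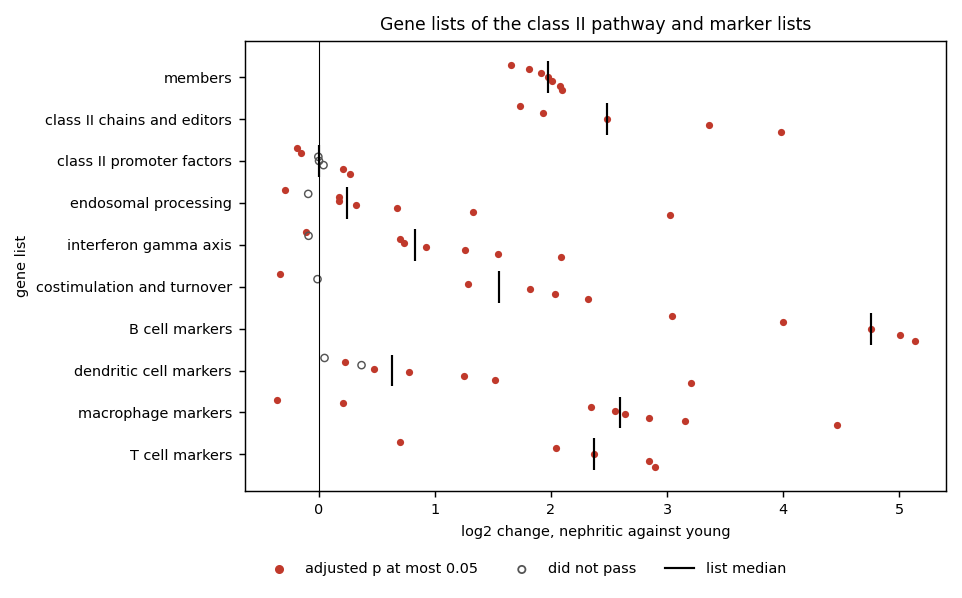
Log2 change between nephritic and young mice (horizontal axis) of every tested gene in the lists of the class II pathway and of cell type markers, filled where the adjusted p was at most 0.05, with a bar at each list median. The chain list has its median at 2.49 and the promoter factor list at 0.00.

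Markers of cells that carry class II were also higher in nephritic mice. All 5 B cell markers rose, and their sum went from a median of 1.83 CPM in young mice (range 1.06 to 22.7) to 35.6 in nephritic mice (range 6.56 to 337.5). Ms4a1, Cd79a and Pax5 rose by log2 changes of 4.0 to 5.01, and Pax5 had no count in 17 of 30 young mice. Of 8 macrophage markers, 7 rose, among them Itgam by 4.46 (SE 0.19), Fcgr1 by 3.15, C1qb by 2.84 and C1qa by 2.64, and their sum went from 195.4 CPM (139.7 to 235.9) to 467.8 (240.6 to 1323). Mertk fell by 0.36.

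Of 8 dendritic cell markers 6 rose and the others were not called, with a list median log2 change of 0.63. Among those that rose, Itgax was at 3.21 (SE 0.18), Xcr1 at 1.52, Flt3 at 1.25 and Batf3 at 0.78. The sum of the list went from 12.9 CPM (8.69 to 17.5) to 29.7 (12.99 to 89.1). All 5 T cell markers rose, Cd3g by 2.90 and Cd3d by 2.85, and their sum went from 6.99 CPM (4.94 to 12.9) to 23.1 (8.46 to 121.8). All 5 proximal tubule markers fell, with a median log2 change of -0.80, from a sum of 9837 CPM (7099 to 12475) to 5815 (1213 to 9607). Of 4 endothelial markers 2 fell, Kdr by 0.65 and Emcn by 0.23. How much of the rise in the 7 genes goes with these cell types was not tested.

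In remission mice none of the 7 genes was called lower than in nephritic mice, and all 7 were called higher than in young mice. Both comparisons came from 1 fit of the 35 libraries of ZT0 and ZT12 (14 young, 13 nephritic and 8 remission mice) over 16841 genes, and thus share the remission libraries. Against nephritic mice 20.5% of genes were called lower, and against young mice 21.2% were called higher. Medians over all time points are given here with no test. Lcn2, a tubular injury gene, stood at 72.5 CPM in nephritic, 16.6 CPM in remission and 3.08 CPM in young mice. In the same order of groups, the injury gene Havcr1 stood at 158.5, 98.3 and 47.4 CPM. The chemokine Ccl2 stood at 8.40, 2.46 and 0.843 CPM.

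Cd74 ranged from 182.0 to 821.8 CPM (median 419.7) in remission mice. At the same times it ranged from 184.5 to 1783 CPM (median 469.3) in nephritic and from 93.9 to 149.3 CPM (median 111.1) in young mice. Its log2 change was -0.26 against nephritic mice (SE 0.29, 95% interval -0.85 to 0.32, adjusted p = 0.496) and 2.06 against young mice (SE 0.27, adjusted p = 3.19e-07). All 8 remission mice exceeded the highest young mouse.

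Ciita ranged from 3.42 to 19.5 CPM (median 9.72) in remission mice, and 6 of 8 exceeded the highest young mouse. The log2 change was -0.32 against nephritic mice (95% interval -0.86 to 0.21, adjusted p = 0.347) and 1.80 against young mice (SE 0.27, adjusted p = 2.3e-06). In this fit H2-Eb1 was furthest below nephritic mice, at -0.42 (95% interval -1.05 to 0.21, adjusted p = 0.292), and H2-Ab1 was nearest, at -0.08 (95% interval -0.68 to 0.52, adjusted p = 0.857). The other 3 genes lay between -0.27 and -0.12 against nephritic mice. Against young mice the 7 changes ran from 1.69 for H2-DMb1 to 2.16 for H2-Ab1. These intervals come from a fit without a term for the assumed sequencing run, and a gene that did not pass is not shown to be equal in both groups.

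**Figure D3:**
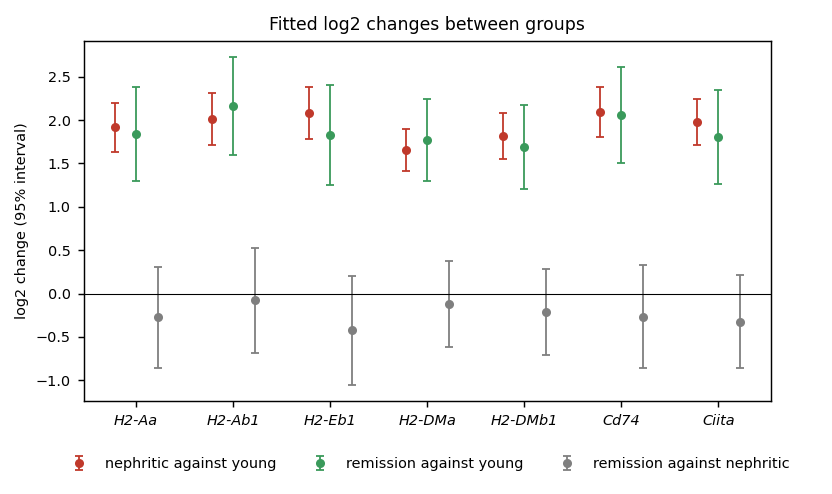
Fitted log2 change with its 95% interval (vertical axis) for each of the 7 genes in 3 comparisons. The intervals of nephritic against young and of remission against young mice lie above 0 for all genes, and those of remission against nephritic mice include 0. These fits have no run term.

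If the repeats share the run of the remission mice, run and remission can be told apart only through the mice with a repeat library. In the 3 repeat libraries that matched their originals, H2-Ab1 was 0.52 to 0.74 higher on the log2 scale than in the originals, and Cd74 0.21 to 0.34 higher. H2-Eb1 was between -0.14 and -0.06. With a run term estimated from all 4 repeats, the log2 changes against nephritic mice ran from -0.90 for H2-Ab1 (adjusted p = 0.0716) to -0.53 for H2-Eb1, and 0 of 7 genes were called. All 7 stayed called against young mice in that fit. The run term fits had no term for mouse, and each repeat counted as a further library of its group. The run term can thus also carry differences between mice. Leaving out the unmatched RX11RU pair, H2-Ab1 was called lower than in nephritic mice, at -1.10 (adjusted p = 0.0471), and lost its call against young mice, at 1.25 (adjusted p = 0.0603). In that fit Cd74 was at -0.99 (adjusted p = 0.0723) against nephritic mice. The order of the 7 genes thus turned with the run term, under which H2-Ab1 was furthest below nephritic mice and H2-Eb1 nearest in both fits. The lowest bounds of the 95% intervals, both for H2-Ab1, were -1.65 with all 4 repeats and -1.92 without the RX11RU pair. With all 4 repeats the intervals of H2-Ab1, H2-DMb1 and Cd74 lay wholly below 0. Without the RX11RU pair those of H2-Ab1, H2-DMa, H2-DMb1, Cd74 and Ciita did. In each fit the intervals of the other genes included 0.

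For the other lists, values come from the fit without a run term, and their calls with a run term are not reported here. None of the 5 other class II chains was called lower than in nephritic mice, and all 5 were higher than in young mice. H2-DMb2, for one, was at -0.14 against nephritic and 3.70 against young mice. Ctss was at -0.41 (adjusted p = 0.230) and 2.72 (adjusted p = 1.44e-09). In the interferon gamma axis the receptor chain Ifngr1 was the 1 gene called lower than in nephritic mice, at -0.51 (adjusted p = 0.00797), while Irf1 was higher than in young mice by 1.08. Ifng had no count in 2 of 8 remission mice and was not called in either comparison. Of the 7 promoter factors, Rfx5 (-0.37), Nfyb and Nfyc were called lower than in nephritic mice and Rfxank higher. Rfx5 was at -0.05 (adjusted p = 0.762) against young mice. Ctsl and Ctsb were called lower and Ctsh and March8 higher than in nephritic mice.

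Markers of class II carrying cells and of T cells were detected in all remission kidneys. Summed B cell markers had a median of 49.3 CPM (7.09 to 167.6), macrophage markers 463.2 (275.9 to 833.9), dendritic cell markers 23.4 (13.3 to 43.8) and T cell markers 27.1 (8.38 to 60.0). In these 4 lists, in the fit without a run term, Clec9a was called lower than in nephritic mice and Pax5 and Csf1r higher. In the same fit all 4 endothelial markers were higher than in nephritic mice, Kdr by 1.35. Whether the level of the 7 genes in remission follows these cells was not tested.

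None of the 7 genes was called for differences over the 6 time points in young mice, where 39.8% of genes were, or in nephritic mice, where 21.6% were. In young mice the fitted means moved by 0.12 on the log2 scale for H2-Aa up to 0.46 for H2-DMb1 between the lowest and the highest time point, with adjusted p from 0.404 to 0.955. Cd74, for example, had a mean of 107.3 ± 11.1 CPM (SD, n = 4) at ZT4 and of 121.7 ± 23.3 CPM (SD, n = 4) at ZT16. In nephritic mice the range was 0.58 for H2-DMb1 to 1.15 for Ciita, with adjusted p from 0.191 to 0.637.

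Ciita came nearest to a time course. Its mean in nephritic mice was 7.33 ± 4.03 CPM (SD, n = 4) at ZT8 and 19.6 ± 13.1 CPM (SD, n = 6) at ZT12, the latter with mouse HIL5RU at 45.6 CPM. Its adjusted p over time points (edgeR's quasi-likelihood F test) was 0.191. It was 0.0230 in a joint fit of both groups that shares 1 dispersion and 1 set covariate. For a difference in time course between the groups, 6.27% of genes were called and 0 of the 7, by edgeR's test of the group by time terms. Ciita had an unadjusted p of 0.0378 there (adjusted p = 0.164), and the other 6 genes had adjusted p from 0.394 to 0.897.

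**Figure D4:**
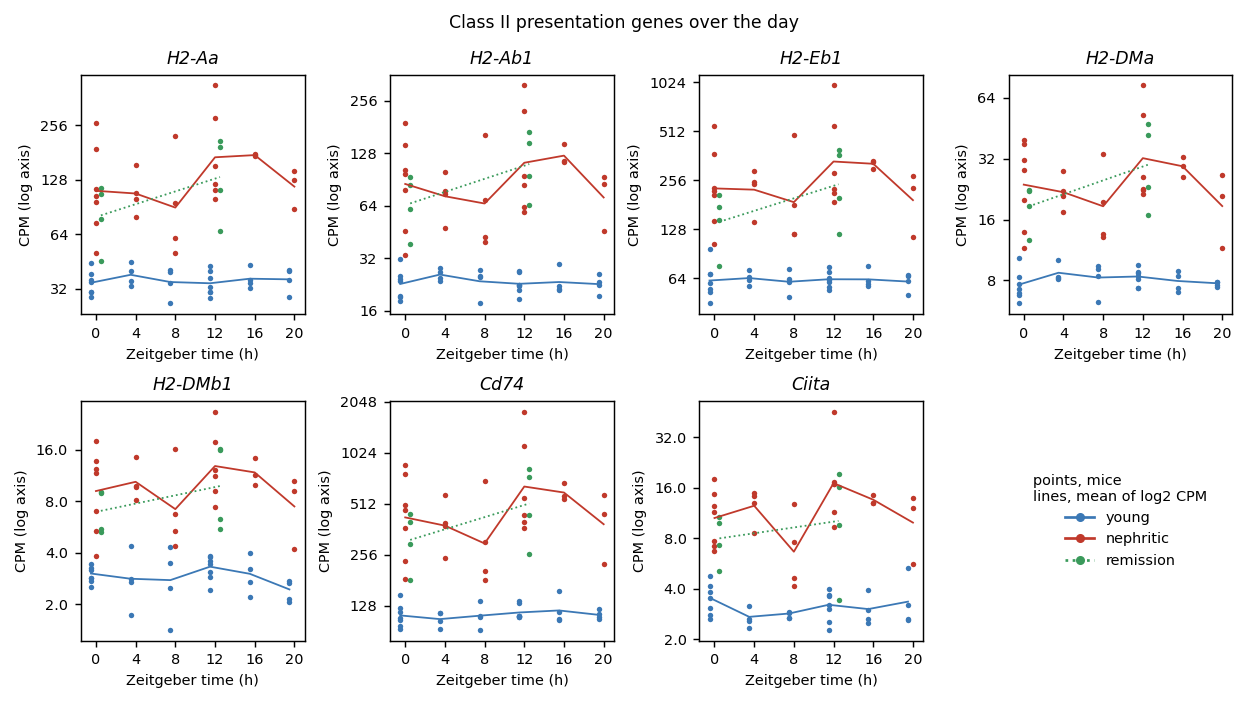
CPM (log axis) of each gene against Zeitgeber time, with a point for each mouse and a line through the mean of log2 CPM per time point and group, dotted for remission mice at ZT0 and ZT12. Arithmetic means of Cd74 in young mice lie between 107.3 and 121.7 CPM, below the lowest nephritic mouse at 181.9 CPM, and nephritic mice spread widely at ZT12, from 369.8 to 1783 CPM.

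All 5 B cell markers and all 5 T cell markers were called over time points in nephritic mice, and 2 of the 5 other class II chains, H2-Ob (adjusted p = 0.0276) and H2-Oa. In the group by time test all 5 B cell markers were called, with adjusted p from 0.00470 for Pax5 to 0.0327 for Cd79b. H2-Ob (adjusted p = 0.0478), Batf3 (0.0387), Cd3d (0.0478) and Cd3g (0.0467) were called as well, and so were the adrenal markers Cyp11b1 (0.0295), Cyp11a1 (0.0495) and Cyp21a1 (0.0473). B cell markers were called over time points in young mice too, 3 of the 4 tested. None of the 8 macrophage markers was called over time points in nephritic mice or in the group by time test. These calls rest on 3 to 7 mice per time point, and their cause was not tested.

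In remission mice all 7 genes had a lower mean at ZT0 than at ZT12, and none was called. Cd74 was at 182.0, 294.6, 400.1 and 448.0 CPM at ZT0 and at 259.8, 439.3, 740.1 and 821.8 CPM at ZT12. Ciita was at 5.15, 7.28, 9.83 and 10.8 CPM at ZT0 and at 3.42, 9.62, 16.2 and 19.5 CPM at ZT12. The groups overlapped in both genes, and mice s12 and s14 supplied the high values. The log2 differences (ZT0 minus ZT12) ran from -0.83 for H2-Eb1 to -0.57 for Ciita, with adjusted p from 0.496 to 0.635, and H2-DMa had the lowest unadjusted p at 0.0416.

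With 8 libraries, 0 of 14451 genes (0%) were called in that comparison by edgeR, 1449 had an unadjusted p under 0.05, DESeq2 called 21 and limma 0. Without mouse s9, which had 439.3 CPM of Cd74, 202 genes were called and still 0 of the 7, with differences from -0.95 for H2-Eb1 to -0.66 for Ciita. Mice s14 and s12 were first and second of 8 in the summed markers of B cells, T cells, dendritic cells and macrophages, and their part in the difference was not tested.

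Within nephritic mice the 7 genes varied together. On log2 CPM (prior count 2), Ciita correlated with each of the other 6 over 27 mice, with Pearson's r of 0.80 for H2-Ab1 to 0.88 for Cd74 and Spearman's rho of 0.69 to 0.77. All 6 had an adjusted p of 2e-05 for r over the 12 relations tested, each from the smallest p that 100000 permutations can give (two-sided permutation test). For rho the adjusted p ran from 6e-05 to 0.00042. Such correlations were common in these mice: of 14228 genes with a mean of at least 1 CPM, 25.0% were called with r above 0 (permutation test, adjusted over those genes), and 4.31% had an r at least as high as the lowest of the 6, with Cd74 at rank 181 and H2-Ab1 at rank 613. Without the 2 mice farthest from the Ciita median, r was 0.67 to 0.82 over 25 mice and all 6 were called. In Set 2 alone (22 mice) r was 0.78 to 0.88.

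In young mice Ciita was not called with any of the 6, at r of -0.36 for H2-DMa to 0.33 for H2-DMb1 over 30 mice, with the lowest adjusted p at 0.0861 (permutation test). Over all time points the sets overlapped in Ciita among young mice, with 3.65 to 4.80 CPM in Set 1 and up to 5.31 CPM in Set 2 (mouse ZT20LU). Set 1 holds only 5 nephritic mice, too few for a value of its own. On residuals after time point and set, r was -0.03 to 0.45, and H2-DMb1 (r = 0.45) and Cd74 (r = 0.45) were called, each with an adjusted p of 0.0188. In Set 2 alone (24 mice) r was -0.04 to 0.42 and none was called. The difference in r between young and nephritic mice was not tested.

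**Figure D5:**
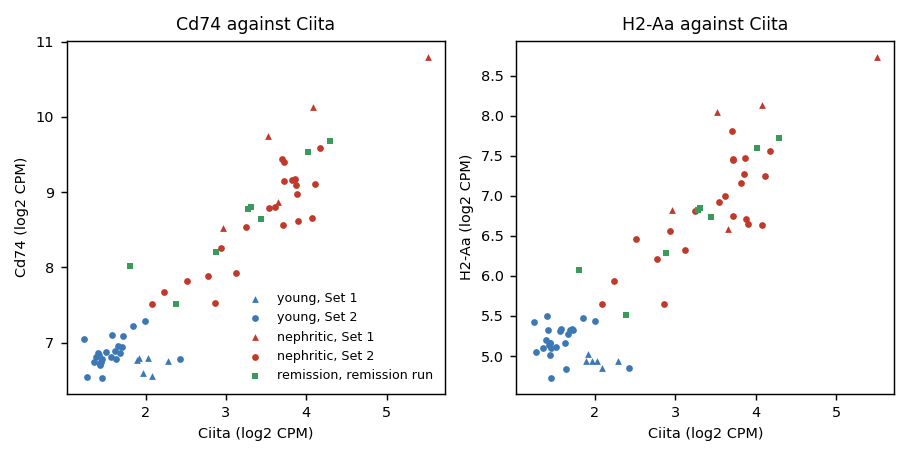
Log2 CPM of Cd74 (left) and H2-Aa (right) against log2 CPM of Ciita, a point for each mouse, coloured by group, with triangles for Set 1, circles for Set 2 and squares for the remission run. Nephritic mice extend along a line (r = 0.88 for Cd74 over 27 mice), and young mice form a compact cloud in which the sets overlap.

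Over all 21 pairs of the 7 genes, on residuals after time point and set, Pearson's r had a median of 0.95 in nephritic mice (0.78 to 0.99, n = 27) and of 0.64 in young mice (-0.03 to 0.89, n = 30). These are descriptions, since genes of 1 library share its depth and cell content. The tightest pair in nephritic mice was H2-Ab1 with Cd74, and in young mice H2-Aa with H2-Ab1. The least like was H2-Aa with Ciita in both groups.

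Ratios to Cd74 within a library differed between groups for some members. Mean log2 CPM of H2-DMa relative to Cd74 was -3.82 ± 0.16 (SD, n = 30) in young, -4.21 ± 0.22 (SD, n = 27) in nephritic and -4.09 ± 0.16 (SD, n = 8) in remission mice. For H2-Eb1 the ratio was -0.87 ± 0.12, -0.87 ± 0.19 and -1.11 ± 0.08, and for H2-Ab1 -2.28 ± 0.14, -2.36 ± 0.16 and -2.23 ± 0.10. In the repeat libraries of ZT0LU, ZT12RU and RX12RU, H2-Eb1 was between -0.14 and -0.06 against the originals on the log2 scale. Cd74 was at 0.21 to 0.34 there and H2-Ab1 at 0.52 to 0.74. The part of the run in the remission ratios was not tested.

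The genes whose pattern was most like the 7 were ranked by their mean Pearson r to them over the 27 nephritic mice, on the same residuals, among 14222 genes with a mean of at least 1 CPM. H2-Ea-ps came first (mean r 0.93), then Neurl3 (0.90), Clec7a (0.90), Casp4 (0.90) and Psmb8 (0.90). Neurl3 is a RING-type ubiquitin ligase, Clec7a the beta-glucan receptor Dectin-1 of myeloid cells, Casp4 an inflammatory caspase and Psmb8 a subunit of the immunoproteasome, encoded in the class II region. Their log2 changes between nephritic and young mice were 1.58 (SE 0.13) for Neurl3, 1.79 (SE 0.16) for Clec7a, 2.21 (SE 0.17) for Casp4 and 1.83 (SE 0.14) for Psmb8. Psmb8 rose from a median of 15.4 CPM to 48.7 and stood at 53.8 CPM in remission mice. In the fit without a run term, none of the 5 was called lower in remission than in nephritic mice, with adjusted p from 0.108 to 0.955.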

How the data were processed

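Poly-A RNA of perfused whole kidneys from female NZB/W F1 mice was sequenced. The authors aligned reads to the mouse genome and deposited raw counts per gene symbol, from uniquely aligned reads on exons and splice junctions. Their methods name a Burrows-Wheeler aligner, and the submitters' processing notes list HISAT and mm10, with versions not given in the sources used here. Files listed 24538 symbols, of which 15 had empty cells and 24523 were kept. Whether counting used strand is not given in the sources used here, so reads of overlapping antisense genes could be shared.

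Groups came from the diagnosis and time labels, and 4 repeat libraries entered no group comparison other than the run term. Counts were tested with edgeR 4.0.16 (R 4.3.3; TMM factors, quasi-likelihood F test, Benjamini-Hochberg adjustment over all genes, adjusted p of at most 0.05) on genes with at least 100 counts over the libraries of a fit. Levels are CPM with TMM factors, and log2 CPM used a prior count of 2. Intervals are 95% intervals of the fitted log2 change. Their width rests on the spread between these mice, and they do not give the range of single mice. A floor of 3 counts covers counting error only. Correlations used 100000 permutations, two-sided. Each mouse gave 1 library, except that the run term fits also held repeat libraries, counted as separate libraries without a term for mouse.

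Alternatives were RLE factors, DESeq2 1.42.0, limma 3.58.1 on log2 CPM, no filter, no set covariate, Set 2 alone, ZT0 and ZT12 only, a 24 h cosine, a joint fit of both groups, only the groups compared, a run term bridged by the repeats, leaving out mouse s9 and leaving out each library. The run term without the RX11RU pair and the fits without libraries with adrenal markers over 50 CPM were chosen after seeing the data, as was the correlation of Ciita with all genes. In remission comparisons, the setting of Set 2 alone also kept the remission mice. The tests were checked on simulated data.

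The 7 genes and the lists were chosen with earlier results of these data known. Named genes were the 7, up to 4 genes per list with the largest change between nephritic and young mice, all genes of the lists that passed the group by time test, and the 5 genes most like the 7. Some genes that this rule names are not reported here. Other list genes, such as those that fell, those called in remission and those at 0 counts, and other mice were named after their values were seen. The H2-Ea symbol of the chain list was not among the symbols analysed here. Promoters were RefSeq sequences of GRCm38.p6. H2-Ab1 and Ciita promoters were not used here.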

Additional observations from a re-analysis of the deposited data

Results flagged for a closer look

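Dixon's ratio was computed on log2 CPM for each of the 7 genes in each group of 4 to 10 mice at 1 time point, 84 groups in all, and 2 exceeded the 95% critical value, where chance alone gives about 1 in 20. In young mice at ZT16, H2-Ab1 was at 29.6 CPM in mouse ZT16RU and at 21.1 to 22.1 CPM in the other 3 mice (gap over range 0.856, critical value 0.829). The adrenal markers of that library summed to 1644 CPM, and their part in the value was not tested. In young mice at ZT4, H2-DMa was at 10.1 CPM in mouse ZT4RL and at 8.16 to 8.36 CPM in the other 3 mice (gap over range 0.888).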

How the results depend on the processing

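All 7 genes were called higher in nephritic than in young mice in each of 57 fits without 1 library and under each of 8 other settings, including the fit without the 9 libraries with adrenal markers. Their log2 changes there ran from 1.46 (H2-DMa) to 2.33 (Cd74). Against nephritic mice, log2 changes in remission that were not called changed sign with the samples. With Set 2 and the remission mice alone, H2-Aa was at 0.030, H2-Ab1 at 0.27, H2-DMa at 0.13 and Cd74 at 0.035. With only the 2 groups compared, these genes were at 0.014, 0.24, 0.11 and 0.0048. Leaving out 1 library moved H2-Ab1 between -0.22 and 0.044, above 0 without nephritic mouse HIL5RU or RX12RU or remission mouse s1. With the run term and without the RX11RU pair, 1 of 7 genes (H2-Ab1) was called lower than in nephritic mice. In the joint fit, 1 of 7 genes (Ciita) was called over time points in nephritic mice. The causes were not tested.

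Counts over all genes moved by more than 1.5 times in these cases. Remission against nephritic mice fell from 6319 to 4001 with the run term and 3835 without the RX11RU pair, and remission against young mice from 7002 to 2342 and 1702. Time points in young mice went from 6583 to 3721 in the joint fit and 3921 without the libraries with adrenal markers. Time points in nephritic mice went from 3646 to 5646 with DESeq2, 1994 without the set covariate and 362 with the cosine. The group by time test went from 1099 to 2186 with DESeq2, 1715 in Set 2 alone, 21 at ZT0 and ZT12, 726 without those adrenal libraries and 638 to 1771 without 1 library. Replicate numbers were assigned in accession order and pair no mice, so comparisons between groups were unpaired. The 4 repeat libraries were compared with their own originals without a test.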
